A study of Mus musculus with 6 samples.

Results

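S100 genes encode small proteins that bind calcium through EF-hand loops and mostly act as dimers inside and outside cells. The 9 members described here were the rows of the deposited table, which holds 33971 genes, whose gene name was S100a1, S100b, S100a4, S100a6, S100a8, S100a9, S100a10, S100a11 or S100a13. All 9 were found once each, had counts in every library and passed the filter on low counts. S100a1 and S100b are read as cartilage members because chondrocytes contain both proteins, and S100a8 and S100a9 as myeloid members because neutrophils and monocytes store them.

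The study asked how expression in articular cartilage of wild-type (WT) mice changes with age. Cartilage RNA was sequenced in 3 libraries at 2 months of age and 3 at 18 months. No treatment or further allele is named for either age. Whether a library is 1 mouse or a pool of mice, and which joint surfaces went into it, is not given in the sources used here. P-values therefore measure the spread between these libraries, which may be partly technical. At the median over genes, squared differences between 18-month replicates 2 and 3 were 6.32 times those of counting error. For 18-month replicate 1 against these they were 23.4 and 23.5 times, and between 2-month replicates 13.1 to 48.8 times. The libraries held 48171507 to 59085179 counts.

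The libraries differed in more than age, which bears on every value below. The study's methods speak of male mice, yet counts of Xist, which coats the silenced X, ranged from 88239 to 102417 at 2 months and from 11 to 30 at 18 months. The Y-linked genes Kdm5d, Uty, Ddx3y and Eif2s3y had 0 to 39 counts at 2 months and 1189 to 5616 at 18 months, so sex and age cannot be told apart. A list of 16 chondrocyte genes took 8.64% to 10.1% of the counts at 2 months and 0.249% to 1.07% at 18 months, and all 16 genes fell. A list of 14 neutrophil genes without S100 genes took 2.53% to 2.58% at 18 months, and at 2 months 0.00145% in replicate 1, 0.414% in replicate 2 and 0.0241% in replicate 3. In tissue RNA, fewer cells of a type and less RNA per cell cannot be told apart.

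S100 proteins switch partners when calcium binds. S100a1 and S100b are among the genes that the transcription factors Sox5, Sox6 and Sox9 are known to turn on in chondrocytes, where they hold back terminal differentiation. S100a8 and S100a9 pair to form calprotectin, which makes up much of the neutrophil cytosol, binds zinc and manganese, and once released acts on the receptors Ager (RAGE) and Tlr4. The remaining members are found in many cell types and work with annexins, the cytoskeleton or exported growth factors.

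Of the 9 members, 3 were called different between the ages, 2 higher and 1 lower at 18 months. A call needed a Benjamini-Hochberg adjusted p-value below 0.05 in edgeR's quasi-likelihood test and a log2 fold change above 1 or below −1, and 36.3% of the 20397 genes tested passed both limits (14.9% upward and 21.3% downward). On the adjusted p-value alone 5 members passed, 3 higher and 2 lower, as did 51.3% of all genes tested. Over the members the median log2 fold change was 0.999, against −0.02 over all genes tested. S100a6 and S100a11 rose and S100b fell. S100a8 and S100a9 differed most in level, but their 2-month libraries were so unlike each other that neither was called. FPKM values, which scale counts by transcript length and library size, did not overlap between the ages for 7 members, 5 higher and 2 lower at 18 months, and for 68.4% of all genes tested (35.6% higher and 32.8% lower).

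**Figure D1:**
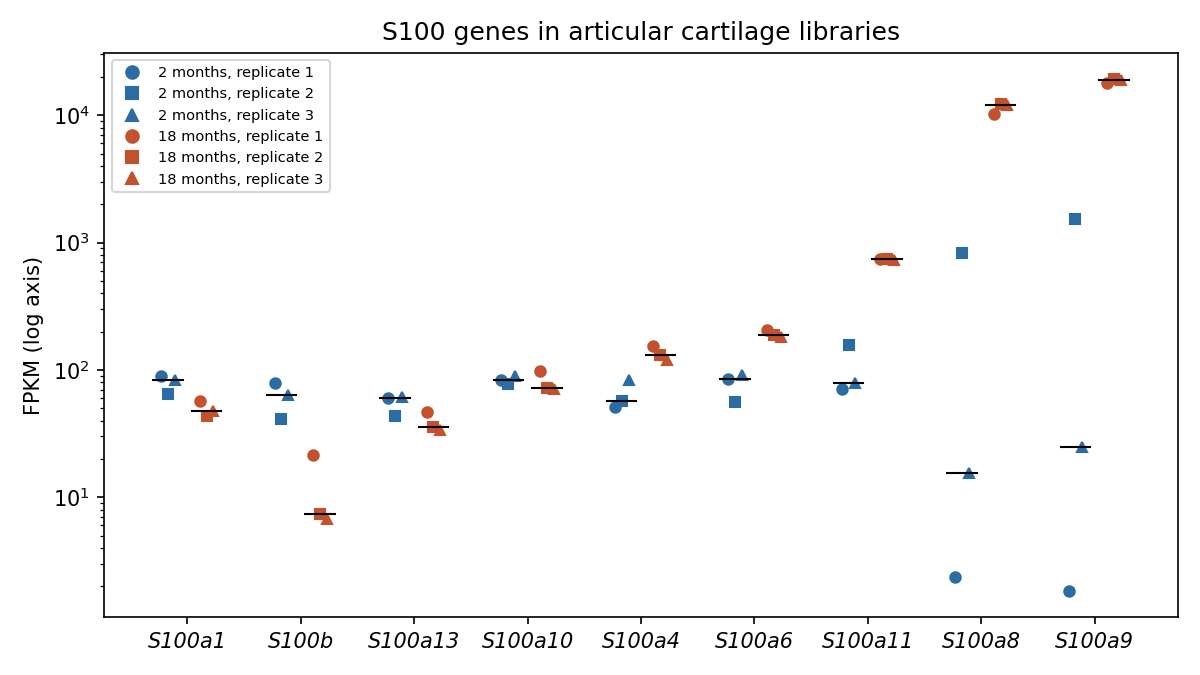
FPKM on a log axis (vertical) of each of the 9 S100 genes (horizontal) in 3 libraries of 2 months and 3 of 18 months, 1 point per library with a black bar at the median of each age. S100a8 and S100a9 spread from 2.35 to 833 FPKM and from 1.83 to 1522 FPKM over the 2-month libraries and lie at 10127 FPKM or more in the 18-month libraries.

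S100a1 (ENSMUSG00000044080, chromosome 3, 90511034 to 90514392, minus strand) encodes a calcium sensor known best from heart and skeletal muscle, where it acts on calcium release and uptake. Its FPKM was 89.8, 64.3 and 83.9 in 2-month replicates 1, 2 and 3, and 57.1, 43.6 and 47.1 in the 18-month replicates. The ages did not overlap, and the highest 18-month value lay close to the lowest 2-month value. The log2 fold change was −0.78 (standard error 0.19, edgeR quasi-likelihood adjusted p = 0.0197), which is past the p-value threshold and under the fold change limit. Leaving out 2-month replicate 1, 2-month replicate 3, 18-month replicate 2 or 18-month replicate 3 took the adjusted p-value above 0.05 (0.0555 to 0.0754, edgeR).

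S100b (ENSMUSG00000033208, chromosome 10, 76253853 to 76261159, plus strand) encodes the S100 protein most used as a stain for chondrocytes and glia. The 2-month replicates held 78.3, 41.0 and 63.3 FPKM and the 18-month replicates 21.4, 7.45 and 6.70 FPKM. Every 18-month library was below every 2-month library, and 18-month replicate 1 stood well above its fellow replicates. S100b fell by 2.47 on the log2 scale (standard error 0.55, edgeR quasi-likelihood adjusted p = 0.0131), a 5.54-fold difference. Without 18-month replicate 1 the log2 fold change was −3.17. The gene overlaps Dip2a on the opposite strand by 1731 bases, and whether counting used the strand is not given in the sources used here. Dip2a had 1524 to 1912 counts at 2 months and 738 to 1076 at 18 months, against 3562 to 6386 and 634 to 2136 for S100b.

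The cartilage pair did not keep its proportion to other chondrocyte genes. For every 1000 FPKM summed over the chondrocyte list, S100a1 had 3.25, 3.58 and 2.90 FPKM in the 2-month replicates and 15.9, 52.9 and 58.3 in the 18-month replicates. S100b had 2.84, 2.28 and 2.19 on the same scale at 2 months and 5.96, 9.05 and 8.29 at 18 months. Both were thus higher relative to the list in each 18-month library than in any 2-month library, a difference that was not tested. The mix of genes in the list sum changed between libraries. Cytl1 and Prg4 had 1867 and 1389 of 3593 FPKM in 18-month replicate 1, and 446 and 266 of 808 in 18-month replicate 3. They had 11334 and 6097 of 27601 FPKM in 2-month replicate 1, and 3401 and 2575 of 17962 in 2-month replicate 2. S100a1 was 1.15, 1.57 and 1.33 times S100b by FPKM in the 2-month replicates, and 2.67, 5.85 and 7.04 times in the 18-month replicates. The chondrocyte list had a median log2 fold change of −6.11, against −0.78 for S100a1 and −2.47 for S100b.

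Other cell types are known to express the cartilage pair, and their lists moved as follows. Of 8 Schwann cell and glia genes, 2 rose and 4 fell, and the list took 0.0245% to 0.0415% of the counts at 2 months and 0.0132% to 0.0176% at 18 months. Sox10, a transcription factor that defines the glial lineage, ranged from 15 to 82 counts at 2 months and from 0 to 4 at 18 months. Of 9 skeletal muscle genes tested, none rose and 6 fell, with the list at 0.00872% to 0.0171% of the counts at 2 months and 0.000785% to 0.000970% at 18 months. That share largely followed Tnni2, with 3625 to 6120 counts at 2 months and 45 to 128 at 18 months. No other gene of the list had more than 972 counts in any library. Among 5 adipocyte genes tested 2 rose and 1 fell, with 0.00336% to 0.00803% at 2 months and 0.0142% to 0.0190% at 18 months. Fabp4 had the most counts of that list at 18 months, 5280 to 7783, against 451 to 1127 at 2 months. Adipoq had 5, 727 and 16 counts at 2 months and 1138 to 1488 at 18 months and was not called (edgeR adjusted p = 0.286). The part of these cells in the levels of S100a1 and S100b was not tested.

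The transcription factors named above for the cartilage pair, Sox5, Sox6 and Sox9, are given from a separate list. That list also holds Runx2, a driver of chondrocyte hypertrophy, and all 4 genes fell. Sox9 had 52.5, 40.6 and 53.1 FPKM in the 2-month replicates and 3.25, 0.588 and 0.565 in the 18-month replicates, a log2 fold change of −5.16 (standard error 0.85, edgeR adjusted p = 0.00511). Sox5 fell by 4.05 and Runx2 by 1.97 on the log2 scale. Sox6, with 6.58 to 8.21 FPKM at 2 months and 3.60 to 4.27 at 18 months, was at the limit with −1.001, and it was under the limit with each other way of scaling counts in edgeR (−0.99 to −0.92).

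S100a8 and S100a9 ranged from low to abundant among the young libraries and ranked among the first 4 of all 33971 genes by FPKM in every aged library. In 2-month replicates 1, 2 and 3 S100a8 ranked 9791, 40 and 2290, and S100a9 10668, 25 and 1358. S100a8 (ENSMUSG00000056054, chromosome 3, 90668978 to 90670035, plus strand) had 90, 33842 and 604 counts in 2-month replicates 1, 2 and 3 and 472396, 531213 and 527916 in the 18-month replicates. By FPKM these were 2.35, 833 and 15.5 at 2 months and 10127, 12173 and 11933 at 18 months. The 2-month libraries spanned a far wider range than the 18-month libraries, and the ages did not overlap. The log2 fold change was 5.34 (standard error 2.12), which did not pass the threshold (edgeR quasi-likelihood adjusted p = 0.0795).

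S100a9 (ENSMUSG00000056071, chromosome 3, 90692632 to 90695721, minus strand) had 53, 46483 and 725 counts at 2 months and 622845, 635707 and 631332 at 18 months. Its FPKM was 1.83, 1522 and 24.7 in the 2-month replicates and 17751, 19368 and 18973 in the 18-month replicates. The same library, 2-month replicate 2, stood far above the other young libraries. The log2 fold change was 5.19 (standard error 2.25), again short of the threshold (edgeR quasi-likelihood adjusted p = 0.1).

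The call for this pair rests on 2-month replicate 2. Without it S100a8 was higher by 10.21 (standard error 1.14, edgeR adjusted p = 0.000865) and S100a9 by 10.35 (standard error 1.47, edgeR adjusted p = 0.00209) on the log2 scale, and both were called. DESeq2 called both with all libraries, at 5.42 for S100a8 (DESeq2 adjusted p = 0.000166) and 5.27 for S100a9 (DESeq2 adjusted p = 0.000660), as did limma on log2(FPKM + 0.1), at 8.49 and 8.81.

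Together S100a8 and S100a9 took 1.85%, 2.11% and 2.08% of all counts in the 18-month replicates, and 94.4% to 95.6% of the counts of the 9 members. In the 2-month replicates they took 0.000296% (95% Wilson interval 0.000251% to 0.000348%), 0.155% (0.154% to 0.156%) and 0.00276% (0.00261% to 0.00291%), which was 0.512%, 76.5% and 4.36% of the members' counts. Such intervals cover counting error only and are far narrower than the gaps between libraries.

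S100a9 exceeded S100a8 by a similar factor wherever both were abundant. It was 1.83 and 1.60 times S100a8 by FPKM in 2-month replicates 2 and 3, and 1.75, 1.59 and 1.59 times in the 18-month replicates. In 2-month replicate 1, the library with the fewest reads of the pair, it was 0.778 times.

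Neutrophil genes moved with the pair from library to library. Of the 14 neutrophil genes edgeR called none in either direction, with 2 higher at an unadjusted p below 0.05, while DESeq2 called 10 higher and limma on log2(FPKM + 0.1) 13. The list's median log2 fold change in edgeR was 4.95. In 2-month replicate 1 the granule genes Elane and Mpo had 7 and 13 counts, and 3 of the 14 genes (Ly6g, Fcnb and Ctsg) had none. In 2-month replicate 2 Elane and Mpo had 3416 and 10550 counts and in 18-month replicate 1 44075 and 104580. The counts of S100a8 and S100a9 together were 0.205, 0.375 and 0.114 times those of the neutrophil list in the 2-month replicates and 0.734, 0.820 and 0.809 times in the 18-month replicates. That order rests on 1 list gene, Mmp9, which osteoclasts also make and which supplied 10132 of the list's 11621 counts in 2-month replicate 3. Without Mmp9, an alternative chosen after seeing the data, the pair was 0.294, 0.690 and 0.893 times the list in the 2-month replicates and 0.766, 0.856 and 0.845 times in the 18-month replicates. The ages then overlapped, and 2-month replicate 3 was above every aged library. Of 12 monocyte and macrophage genes, 4 rose and none fell in edgeR, while DESeq2 called 8 higher and limma on log2(FPKM + 0.1) 9. That list took 0.00622%, 0.132% and 0.0206% of the counts at 2 months and 0.710% to 0.910% at 18 months. Lyz2 had the most counts of that list in every library but 2-month replicate 1. It had 654, 40685 and 4640 counts in the 2-month replicates and 294787 to 428415 at 18 months, so the share largely follows Lyz2. The part of these cells in the levels of S100a8 and S100a9 was not tested.

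**Figure D2:**
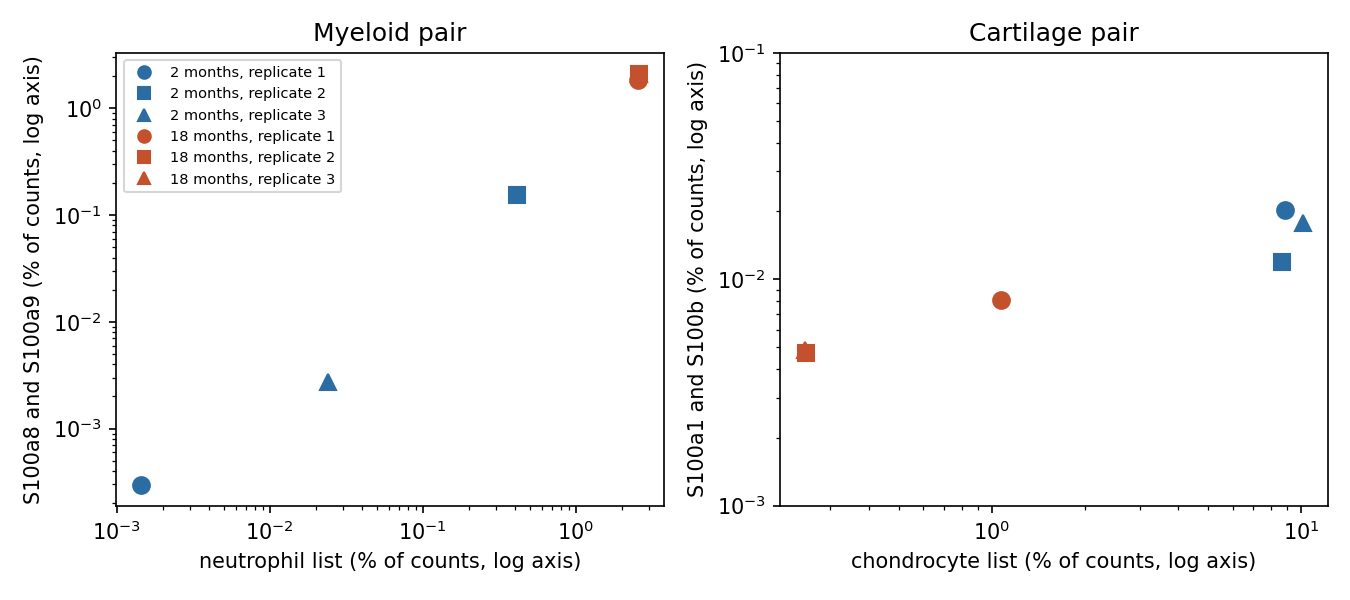
Share of all counts (percent, log axes) of S100a8 and S100a9 together against the neutrophil list (left) and of S100a1 and S100b together against the chondrocyte list (right), 1 point per library. The myeloid pair and the neutrophil list are lowest in 2-month replicate 1 and highest in the 18-month libraries, and the cartilage pair changes over a narrower range (0.00471% to 0.0203%) than the chondrocyte list.

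Set against each other within a library, the cartilage and myeloid pairs changed places. The sum of S100a1 and S100b was 168 FPKM in 2-month replicate 1, where S100a8 and S100a9 summed to 4.17 FPKM, so the cartilage pair was 40.3 times the myeloid pair. In 2-month replicate 3 the sums were 147 and 40.2 FPKM, a ratio of 3.67. In 2-month replicate 2 they were 105 and 2355 FPKM, so that the myeloid pair was 22.4 times the cartilage pair already at 2 months. In the 18-month replicates the myeloid pair was 355, 618 and 574 times the cartilage pair, with sums of 78.5, 51.0 and 53.8 FPKM for S100a1 and S100b and of 27878, 31540 and 30906 FPKM for S100a8 and S100a9.

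As log2 ratios of cartilage to myeloid pair, these were 5.33, −4.48 and 1.87 at 2 months (0.908 ± 4.98, SD, n = 3) and −8.47, −9.27 and −9.17 at 18 months (−8.97 ± 0.434, SD, n = 3). The ages did not overlap, and the gap between the lowest 2-month and the highest 18-month library was 15.9-fold. The 2-month libraries themselves spanned 901-fold. The difference of means was −9.88 (exact two-sided permutation p = 0.1, the smallest value that 3 libraries against 3 allow), so this design cannot place it below 0.05. A ratio within a library does not depend on how libraries are scaled to each other. Without 2-month replicate 2 the difference was −12.57, and without 2-month replicate 1 it was −7.67.

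**Figure D3:**
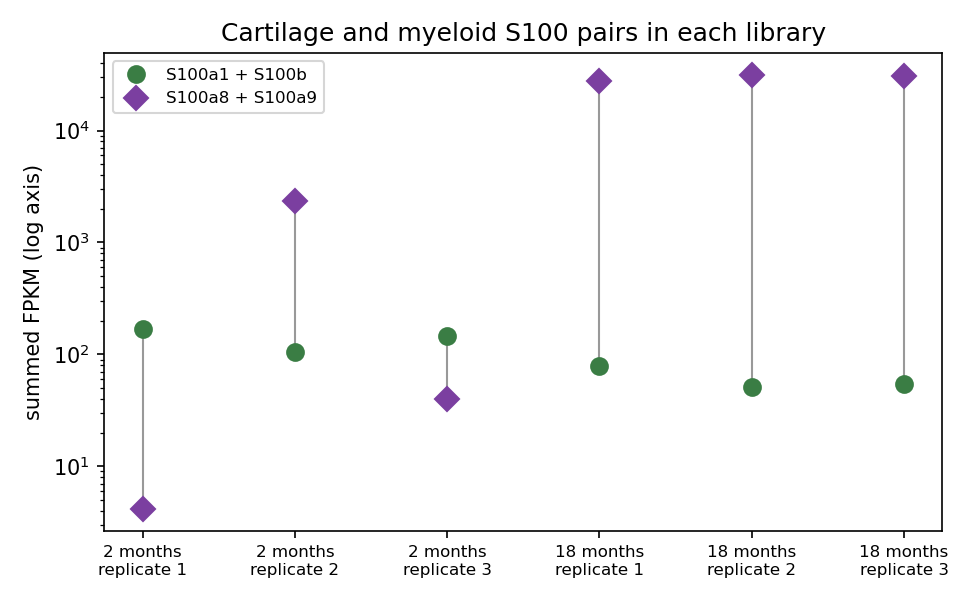
Summed FPKM (vertical, log axis) of S100a1 and S100b (circles) and of S100a8 and S100a9 (diamonds) in each of the 6 libraries (horizontal), joined by a line per library. The circles lie above the diamonds in 2-month replicates 1 and 3 and below them in 2-month replicate 2 and in all 18-month libraries.

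The bases just before the first exon are shown for these 4 genes because the comparison of the cartilage and myeloid pairs turns on them. They are RefSeq sequences of GRCm38.p6, read 5′ to 3′ on the strand of the gene and cut where the GENCODE M21 annotation has an exon, and capitals mark matches to the motifs named after them. The table's coordinates for the 9 members are identical to those of GENCODE M21, which is on GRCm38.
S100a1 (chr3:90514393-90514434, minus strand): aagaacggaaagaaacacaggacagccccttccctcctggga
S100b (chr10:76253603-76253852, plus strand): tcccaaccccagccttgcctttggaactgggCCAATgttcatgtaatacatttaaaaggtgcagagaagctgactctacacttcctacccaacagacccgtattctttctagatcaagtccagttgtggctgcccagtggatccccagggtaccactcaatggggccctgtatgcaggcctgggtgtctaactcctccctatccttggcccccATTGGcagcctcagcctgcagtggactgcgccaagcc
S100a8 (chr3:90668821-90668977, plus strand): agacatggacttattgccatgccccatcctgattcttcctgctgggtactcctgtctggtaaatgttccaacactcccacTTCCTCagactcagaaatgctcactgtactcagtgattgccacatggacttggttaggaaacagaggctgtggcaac
S100a9 (chr3:90695722-90695971, minus strand): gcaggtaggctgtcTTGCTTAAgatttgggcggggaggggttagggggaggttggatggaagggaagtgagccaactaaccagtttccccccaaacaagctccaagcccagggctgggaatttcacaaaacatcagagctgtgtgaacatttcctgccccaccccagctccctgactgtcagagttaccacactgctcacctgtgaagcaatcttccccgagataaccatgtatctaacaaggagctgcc

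The 5 motifs below were searched on both strands in the 250 bases before the RefSeq start, which were held for 8 of the 9 members, all but S100a10. The ETS core GAGGAA was found before S100a8 and S100a11 and in 23.3% of 32851 promoter windows of that length. The C/EBP core TTGCNNAA was found before S100a9 (9.56% of windows), and the CCAAT box before S100b and S100a6 (33.8%). The TATA box TATAAA was found before S100a4 and S100a8 (12.4%), for S100a8 inside the first exon of the GENCODE annotation. The SOX core ACAAAG was in none of the 8 windows and in 16.5% of all windows. Windows of S100a1 and S100a13 overlap, and a match or its absence is a description of these letters.

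The S100a1 sequence is the whole gap between that gene and S100a13 (ENSMUSG00000042312, chromosome 3, 90514435 to 90524581, plus strand), which starts 42 bases away and runs in the opposite direction. S100a13 is known to carry Fgf1 and Il1a out of cells by a route that bypasses the secretory pathway. Its FPKM was 60.7, 43.2 and 60.8 in the 2-month replicates and 46.5, 35.8 and 33.9 in the 18-month replicates. The ages overlapped, since 2-month replicate 2 lay below 18-month replicate 1, and the log2 fold change of −0.60 (standard error 0.22) did not pass the threshold (edgeR adjusted p = 0.0616). S100a13 stayed close to a fixed proportion of its neighbour, at 0.676, 0.671 and 0.724 times S100a1 by FPKM at 2 months and 0.815, 0.821 and 0.720 times at 18 months. Over the 6 libraries Pearson's r between the neighbours on log2(FPKM + 0.1) was 0.96, given as a description, since the libraries share the same age groups.

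Besides S100b, every member lies on chromosome 3, within a family cluster that holds 14 S100 genes of the table between 90511034 and 93564643. S100a11 and S100a10 sit 28792 bases apart at its far end, 2824766 bases from S100a9. The members of this cluster did not move alike.

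S100a11 (ENSMUSG00000027907, 93520488 to 93526287, plus strand), a partner of annexin A1 in membrane repair and in the growth arrest of keratinocytes, had the lowest adjusted p-value of the members. Its FPKM was 70.6, 157 and 78.8 in the 2-month replicates and 744, 736 and 731 in the 18-month replicates. The 18-month libraries were nearly level, and 2-month replicate 2 stood well above the other libraries of its age. S100a11 rose by 2.79 on the log2 scale (standard error 0.30, edgeR quasi-likelihood adjusted p = 0.00181), a 6.94-fold difference, and was called in all 9 alternatives and with each library left out.

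S100a6 (ENSMUSG00000001025, 90612882 to 90624181, plus strand), also called calcyclin, is a protein of dividing fibroblasts and epithelia. It had 84.8, 56.4 and 91.7 FPKM in the 2-month replicates and 205, 189 and 182 FPKM in the 18-month replicates. The ages were clearly apart, with 2-month replicate 2 the lowest library. The log2 fold change was 1.21 (standard error 0.24, edgeR quasi-likelihood adjusted p = 0.00852), and S100a6 was called with each library left out. On FPKM rescaled to a fixed library total (TPM), where the median of all genes moved to −0.33 in limma, it was 0.90 and so under the limit, or 1.23 above that median.

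S100a4 (ENSMUSG00000001020, 90603771 to 90606045, plus strand) binds the heavy chain of non-muscle myosin, Myh9, and is used as a marker of fibroblasts and of migrating cells, macrophages included. The 2-month replicates held 50.7, 56.8 and 83.3 FPKM and the 18-month replicates 154, 131 and 121 FPKM, with no overlap. Its log2 fold change of 0.999 (standard error 0.23, edgeR quasi-likelihood adjusted p = 0.0148) lay just under the limit. It was called in 8 of 9 alternatives, and also when 2-month replicate 3 (1.27), 18-month replicate 2 (1.02) or 18-month replicate 3 (1.07) was left out. With TPM it was 0.68 (limma adjusted p = 0.0547), or 1.007 above the median of all genes.

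S100a10 (ENSMUSG00000041959, 93555080 to 93564643, plus strand), which forms a complex with annexin A2 that brings plasminogen to the cell surface, showed no detectable difference. It had 84.0, 77.5 and 90.1 FPKM in the 2-month replicates and 97.4, 72.3 and 70.6 in the 18-month replicates. The ages overlapped, with the highest value in 18-month replicate 1, and the log2 fold change was −0.15 (standard error 0.16, edgeR adjusted p = 0.463).

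For these broadly expressed members, a list of 10 synovial and tendon fibroblast genes had 2 genes that rose and 5 that fell, with 0.0506% to 0.0973% of the counts at 2 months and 0.0217% to 0.0315% at 18 months. Of 10 osteoblast and osteocyte genes 3 fell and none rose, and 2-month replicate 2 had the largest share of that list, 1.75% against 0.340% to 0.585% in the others. Erythroid genes took 0.0248% to 0.666% of the counts at 2 months and 2.72% to 3.59% at 18 months, and 3 of 10 rose in edgeR, against 9 called higher by DESeq2 and 10 by limma on log2(FPKM + 0.1). Of 8 B lymphocyte genes edgeR and DESeq2 called none, also none at an unadjusted p below 0.05, and limma on log2(FPKM + 0.1) called 1. That list took 0.00101%, 0.0264% and 0.00139% of the counts in 2-month replicates 1, 2 and 3, and 0.0179% to 0.0210% at 18 months. Its share was thus highest in 2-month replicate 2 and lowest in the other young libraries. Of 6 dendritic cell genes 1 rose in edgeR and 1 in DESeq2, and limma on log2(FPKM + 0.1) called 4 of 5 higher. Their median log2 fold change in edgeR was 3.24. They took 0.00198% to 0.00425% of the counts at 2 months and 0.00618% to 0.00767% at 18 months. The part of these cells in the levels of S100a4, S100a6 and S100a11 was not tested.

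**Figure D4:**
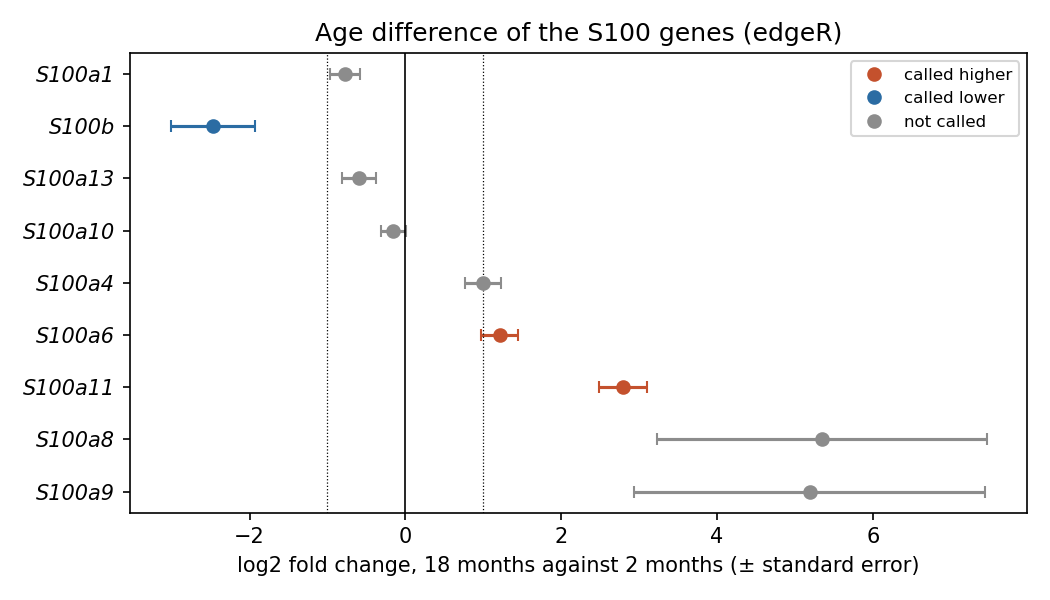
Log2 fold change at 18 months against 2 months (horizontal, with bars of ± 1 standard error from edgeR) for each S100 gene (vertical), coloured by call, with dotted lines at the fold change limits of −1 and 1. The bars of S100a8 and S100a9 are the widest, at 2.12 and 2.25, and those genes are not called although their fold changes are the highest of the members.

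Ordered by mean FPKM, the 18-month libraries gave S100a9, S100a8, S100a11, S100a6, S100a4, S100a10, S100a1, S100a13 and S100b. All neighbours in that order were apart in every library, and only S100a1 and S100a13 had ranges that overlapped. In the 2-month libraries the range of each member overlapped that of its neighbour in the order of means, while members farther apart could be separate, as S100a13 (43.2 to 60.8 FPKM) was below S100a1, S100a10 and S100a11. The means there ran from 54.9 FPKM for S100a13 to 102 FPKM for S100a11, leaving aside S100a8 and S100a9, whose means of 284 and 516 FPKM rest on replicate 2.

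The table holds 7 further S100 genes. Of these 4 were tested, none rose and 2 fell, with a median log2 fold change of −1.27 over the 4. Among all genes tested 14.9% were called higher and 21.3% lower. S100a16 had 28.4, 25.4 and 28.3 FPKM in the 2-month replicates and 10.5, 8.67 and 7.55 in the 18-month replicates, with no overlap and a log2 fold change of −1.71 (standard error 0.16, edgeR adjusted p = 0.00133). S100a7a, a relative of the skin protein psoriasin, had 3.34, 1.43 and 5.03 FPKM at 2 months and 0.414, 0.273 and 0.351 at 18 months, a log2 fold change of −3.33 (standard error 0.56, edgeR adjusted p = 0.00554). S100a3 and S100a14 were below 0.4 FPKM in every library and were not called. S100a2, S100a5 and S100g had at most 17 counts in any library and were not tested.

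Partners and receptors of S100 proteins came from a list of 23 genes, of which 22 were tested, 8 rose and 4 fell, with a median log2 fold change of 0.60. Over all genes tested 14.9% were called higher and 21.3% lower, with a median of −0.02. Among receptors, Ager (RAGE) had 0.861 to 1.39 FPKM at 2 months and 2.08 to 3.61 at 18 months and rose by 1.43 on the log2 scale (standard error 0.36, edgeR adjusted p = 0.0201). Tlr4, with 3.62 to 5.43 FPKM at 2 months and 5.34 to 6.78 at 18 months, had a log2 fold change of 0.23 that did not pass the threshold (edgeR adjusted p = 0.404). With TPM its log2 fold change was −0.10, which lay above the median of all genes on that scale (−0.33). Bsg, which encodes basigin, a receptor for S100a9, was abundant at 2 months (294 to 509 FPKM) and fell to 144 to 151 FPKM. Cd36, a fatty acid transporter that binds calprotectin, rose from 0.924 to 5.59 FPKM at 2 months to 18.5 to 21.7 FPKM at 18 months, and Alcam, a receptor for S100b, rose by 2.82 on the log2 scale. Cd69, a lymphocyte receptor that also binds calprotectin, stayed at or below 1.21 FPKM and was not called.

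Among annexins and other intracellular partners, Anxa1 rose along with its partner S100a11, from 36.1 to 70.6 FPKM at 2 months to 422 to 501 FPKM at 18 months (log2 fold change 3.22, standard error 0.29, edgeR adjusted p = 0.00126). Anxa2 had a log2 fold change of −0.28 and, like its partner S100a10, overlapped between the ages, with 105 to 145 FPKM at 2 months and 98.8 to 143 at 18 months (edgeR adjusted p = 0.350). Anxa5 fell by 1.53 and Ahnak, a scaffold bound by S100a10 and Anxa2, by 1.66 on the log2 scale. Myh9, the myosin bound by S100a4, rose by 1.64 and Ezr (ezrin) by 2.25. Cacybp, the protein named for binding S100a6, had 15.7 to 18.7 FPKM at 2 months and 28.2 to 33.9 at 18 months, a log2 fold change of 0.75 that is past the p-value threshold and under the limit (edgeR adjusted p = 0.00302).

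The cargoes of S100a13 went opposite ways. Fgf1 fell from 6.97, 8.01 and 9.59 FPKM in the 2-month replicates to 3.22, 2.63 and 2.19 in the 18-month replicates (log2 fold change −1.69, standard error 0.19, edgeR adjusted p = 0.00198). Il1a, the cytokine interleukin 1 alpha, rose from 0.140, 0.460 and 0.140 FPKM to 3.16, 4.52 and 4.60 FPKM (log2 fold change 3.97, standard error 0.55, edgeR adjusted p = 0.00312). Neither overlapped between the ages.

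**Figure D5:**
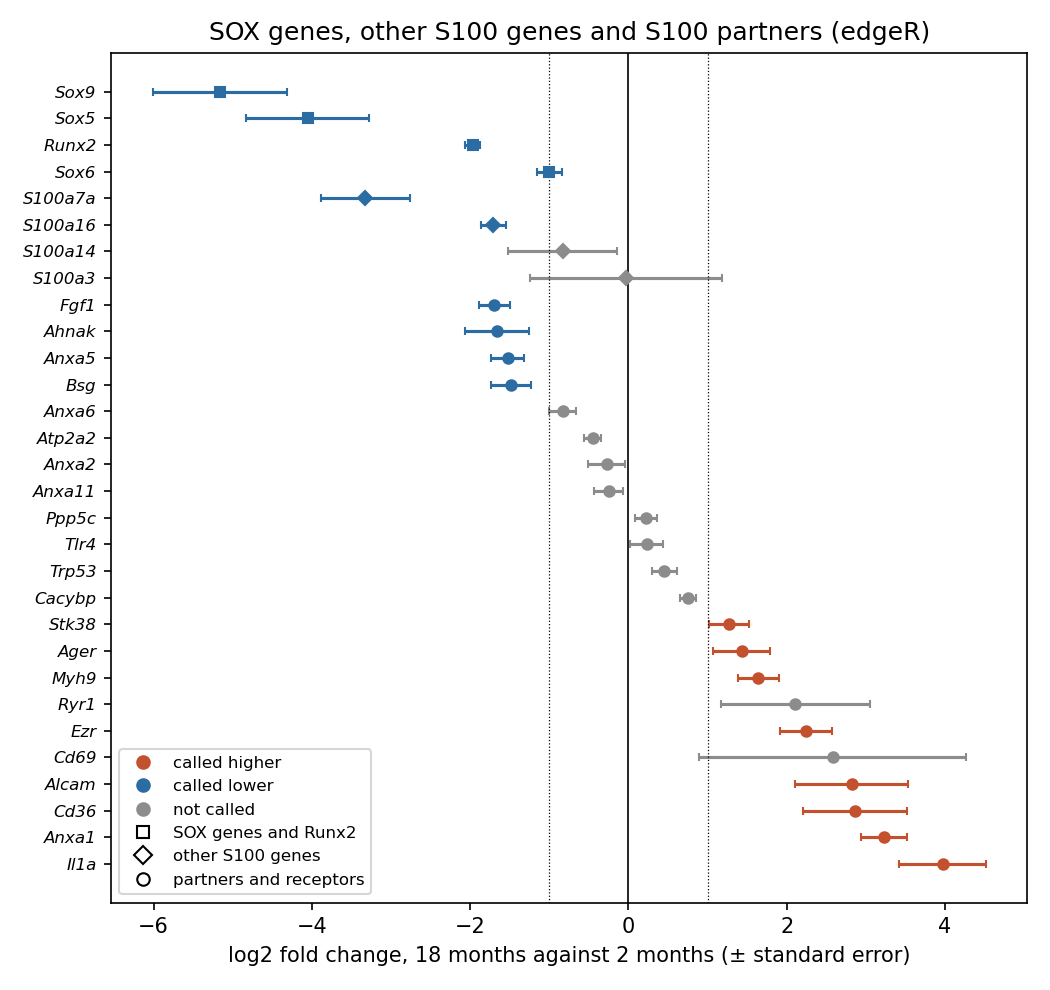
Log2 fold change at 18 months against 2 months (horizontal, ± 1 standard error from edgeR) of the SOX genes and Runx2 (squares), other S100 genes (diamonds) and S100 partners and receptors (circles), coloured by call. Il1a and Anxa1 lie farthest to the right with 3.97 and 3.22, and Sox9 farthest to the left with −5.16.

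The genes whose pattern over the 6 libraries was most like each pair were sought among 13891 other tested genes with a mean of at least 1 FPKM, by Pearson's r on log2(FPKM + 0.1). Nearest to S100a8 were Ly6g, Ifi204 and Laptm5, each with r above 0.999, and 708 genes had r above 0.99. Ly6g, the surface antigen that identifies mouse neutrophils, had 0, 12.4 and 0.349 FPKM in the 2-month replicates and 107, 121 and 115 in the 18-month replicates. Nearest to S100a9 were Rac2, a GTPase of blood cells, Ifitm3 and Kctd12. Nearest to S100a1 were Hspb1, Pebp1 and Uap1 (35 genes with r above 0.99), and nearest to S100b were Nt5e, Sdf2 and Ip6k1 (138 genes). Hspb1, a small heat shock protein, had 16.6, 4.98 and 14.0 FPKM at 2 months and 3.04, 1.23 and 1.48 at 18 months. With 6 libraries in 2 age groups, such values describe these libraries only.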

How the data were processed

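Articular cartilage RNA of 3 libraries at 2 months and 3 at 18 months was analysed. The authors made strand-specific paired-end libraries from poly(A) RNA with adapters that carry molecular identifiers. The submitters' processing notes name cutadapt 1.9, HISAT2 2.0.4, UMI-tools, StringTie 1.3.4d, DESeq2 and edgeR, without roles. Genome build, annotation and whether duplicates were removed are not given in the sources used here. The deposited table gives raw counts for each gene. Its deposited FPKM values divide them by transcript length and library total. Library columns are named Aged and Young with a number and were matched to the titles, and 0 columns were left out.

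The test was edgeR 4.0.16 under R 4.3.3 (TMM, filterByExpr, quasi-likelihood F test, all 6 libraries, no replicate block), with Benjamini-Hochberg adjustment over 20397 genes. The limits on adjusted p (0.05) and log2 fold change (1) are those of the paper. Standard errors are the log2 fold change over the square root of F. The test was checked on simulated counts that gave every gene the same dispersion and held no outlying library. That check does not cover spreads between replicates like those of S100a8 and S100a9. Alternatives were other scalings, no filter, DESeq2 1.42.0, limma 3.58.1 on log2 FPKM or TPM, a replicate block and leaving out each library. Ratios were compared with exact permutation tests (scipy 1.17.1). The named genes are the 9 members, the other S100 genes, the listed partners and SOX genes, the 3 genes most like each member of the cartilage and myeloid pairs, and single list genes that a result turns on. Members and lists were chosen with earlier results of these data known.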

Additional observations from a re-analysis of the deposited data

How the results depend on the processing

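The number of S100 members called was 3 with edgeR and TMM, and 4 with the other count scalings, without a filter on low counts and with the replicate block. It was 6 with DESeq2, with limma on log2(FPKM + 0.1) and with limma on log2(FPKM + 1), and 5 with limma on log2(TPM + 0.1). The added calls were S100a4 in each of these but TPM, S100a8 and S100a9 in all 4, and S100a1 with TPM, which dropped S100a6. With 1 library left out the number ran from 3 to 5, with 5 without 2-month replicate 2. No member changed sign under any alternative run. Among all genes, edgeR with TMM called 7401 of 20397 and the other count scalings 7215 to 7441. Without a filter 6903 of 33971 were called, and with the replicate block 6032 of 20397. DESeq2 called 9556 of 33971. Limma called 8624, 5258 and 8928 of 21539 on log2(FPKM + 0.1), log2(FPKM + 1) and log2(TPM + 0.1). With 1 library left out 5640 to 9583 of 21356 to 21536 were called. The split of all called genes was 41.2% higher with TMM, 57.8% with limma on log2(FPKM + 1), 34.8% with limma on log2(TPM + 0.1), and 35.6% to 52.2% with 1 library left out, highest without 2-month replicate 2.

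Same-numbered libraries did not deviate together (correlations of their deviations 0.03, 0.04 and −0.02), so the numbers were not taken as pairs. With the replicate block edgeR called 6032 genes in place of 7401, and 4 members, S100a4 (1.04) being added. Under the block S100a8 was higher by 8.96 (edgeR adjusted p = 0.0597) and S100a9 by 9.20 (edgeR adjusted p = 0.0750), again not called. The replicate block left the mean difference of the log2 ratio at −9.88 (exact sign-flip p = 0.25, the smallest it allows). The spread between the 2-month libraries, more than counting error, limits the precision of the young level of S100a8 and S100a9.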
